A study of Mus musculus with 24 samples.

Results

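Copying the genome and dividing the copies are carried out by separate sets of gene products. The 44 genes described here are a list of mouse replication and mitosis genes, named by symbol. All 44 were found among the 39056 genes of the count table, and all 44 had enough counts to be tested. They comprised 13 genes that act when DNA is copied, 28 that act when chromosomes are condensed and separated, and 3 transcription factors that drive them.

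The study sequenced mRNA of cells sorted from the ileum of C57BL/6 mice (the J substrain, per the study's methods) into live CD45- cells (epithelium, vessels and stroma) and live CD45+ cells (leukocytes), with Peyer's patches removed and a part of the detached epithelial cells pooled with the lamina propria cells before sorting. Each fraction had 4 genotypes with 3 libraries each, 24 libraries in all, from mice 9 to 10.3 weeks old. The genotypes were Hoil1+/+ Il4ra f/f, Hoil1+/+ Il4ra dIEC, Hoil1-/- Il4ra f/f and Hoil1-/- Il4ra dIEC. Every mouse therefore carried floxed Il4ra, which encodes the shared chain of the IL-4 and IL-13 receptors, and dIEC stands for its deletion by Cre under the Vil1 promoter, which is active in intestinal epithelium. The Hoil1-/- mice were mutant in the whole body for HOIL1, a subunit of the linear ubiquitin chain assembly complex encoded by Rbck1, and this line still makes a small amount of the N-terminal part of the protein. The labels do not tie CD45- and CD45+ libraries to the same mice. They also give no replicate numbers, and those used here follow the order of the libraries within each group. The study left out 3 libraries as outliers, replicate 3 of CD45- Hoil1-/- Il4ra f/f, replicate 1 of CD45+ Hoil1-/- Il4ra f/f and replicate 3 of CD45+ Hoil1-/- Il4ra dIEC. Levels of these are shown, but the tests used the other 11 CD45- and 10 CD45+ libraries.

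Before a cell divides, the MCM2-7 helicase is loaded on replication origins by CDC6 and CDT1, and PCNA then clamps the polymerases to the DNA. Later, cyclins A2, B1 and B2 bind CDK1, spindle and kinetochore proteins attach the chromosomes, and CDC20 and UBE2C direct the ubiquitination that ends mitosis. In the small intestine the rapidly dividing epithelial cells lie in the crypts, while most mature leukocytes of the lamina propria divide little and some activated lymphocytes divide fast.

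Many cell cycle promoters share short sequence elements, and the promoters of genes that differed between the fractions are shown to let these be seen. Capitals mark the letters of 3 motifs found by a search of both strands. They were the CCAAT box (CCAAT, or ATTGG on the other strand), the cell cycle homology region, CHR (TTTGAA or TTCGAA, or TTCAAA on the other strand), and the E2F element (TTCCCGC, the variant TTCGCGC, the variant TTGCCGC or the variant TTGGCGC, and their reverse complements). An E2F element can overlap a CCAAT box, as in Ccnb1. The sequences are from RefSeq, build GRCm38.p6, and each is the stretch of 150 bases before the start in RefSeq, 5′ to 3′ in the direction of the gene. By the GENCODE gene bounds, whose start can be that of a longer transcript, 134 bases of the Pcna stretch, 84 of Ccnb1, 31 of Ube2c, 9 of Cdc20 and 0 of Mcm3 lie inside the gene. Ccnb1, Cdc20 and Ube2c were higher in CD45- cells, and Pcna and Mcm3 were higher in CD45+ cells.
Ccnb1, chr13:100786487-100786636 (- strand): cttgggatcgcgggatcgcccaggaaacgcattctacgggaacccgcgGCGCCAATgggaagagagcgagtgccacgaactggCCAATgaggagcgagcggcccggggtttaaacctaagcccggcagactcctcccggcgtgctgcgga
Cdc20, chr4:118437344-118437493 (- strand): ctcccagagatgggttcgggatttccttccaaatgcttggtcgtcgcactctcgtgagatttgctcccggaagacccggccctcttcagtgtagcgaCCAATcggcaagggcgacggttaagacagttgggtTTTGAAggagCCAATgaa
Ube2c, chr2:164769779-164769928 (+ strand): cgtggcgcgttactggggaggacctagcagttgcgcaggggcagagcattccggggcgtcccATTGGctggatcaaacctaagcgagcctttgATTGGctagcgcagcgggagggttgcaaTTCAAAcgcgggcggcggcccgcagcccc
Pcna, chr2:132253181-132253330 (- strand): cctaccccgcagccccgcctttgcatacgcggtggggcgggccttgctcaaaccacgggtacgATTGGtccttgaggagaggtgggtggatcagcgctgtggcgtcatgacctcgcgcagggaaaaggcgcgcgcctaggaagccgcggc
Mcm3, chr1:20820313-20820462 (- strand): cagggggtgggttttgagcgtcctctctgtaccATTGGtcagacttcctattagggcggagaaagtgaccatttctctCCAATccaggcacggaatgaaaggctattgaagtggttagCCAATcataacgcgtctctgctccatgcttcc

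RefSeq promoters were matched for 37 of the 44 genes. Within the 250 bases before the start, the CCAAT box was present in 20 of the 24 mitosis genes (83.3%) and in 8 of the 11 replication genes (72.7%), against 37.5% of all 27025 genes with a promoter in the table, each counted once if any of its windows of this length held the box. The E2F element was present in 6 of 11 replication genes (54.5%), 4 of 24 mitosis genes (16.7%) and 9.01% of all these genes. The CHR was found in 9 of 24 mitosis genes (37.5%), among them Cdc20 and Ube2c shown above, in 2 of 11 replication genes (18.2%) and in 19.6% of all these genes. None of the 3 motifs was found in the windows of E2f1 and Mybl2. Of the 37 genes, 14 had a part of a window inside their GENCODE gene, and for Cdc6, Mcm7, Cdca8 and E2f1 the whole window lay inside. Such matches describe letters in a window and were not tested as binding sites. In the comparison of fractions given below, 3 of 11 genes with a CHR were higher in CD45- cells and 0 in CD45+ cells. Of the 26 without one, 7 and 4 were. Median log2 fold changes were 0.39 with a CHR and 0.44 without. They were 0.43 with a CCAAT box (28 genes) and 0.41 without (9 genes). For the E2F element they were 0.02 (10 genes) and 0.53 (27 genes). Of all genes tested, 25.1% were higher in CD45- cells and 24.5% in CD45+ cells.

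Rbck1 was measured first as a check of the Hoil1 labels. Levels are given as CPM, a gene's count as a fixed multiple of its share of the library total, with totals scaled by TMM, a correction for differences in library composition. In CD45- cells Rbck1 was 93.1 ± 13.1 CPM in Hoil1+/+ (SD, n = 6, range 72.9 to 110) and 4.90 ± 2.21 CPM in Hoil1-/- (SD, n = 5, at most 7.31). In CD45+ cells it was 133 ± 24.4 CPM in Hoil1+/+ (SD, n = 6) and 9.66 ± 4.67 CPM in Hoil1-/- (SD, n = 4, range 5.38 to 15.9). No Hoil1-/- library overlapped the Hoil1+/+ libraries of its fraction. The log2 fold changes were -4.23 (SE 0.33, adjusted p = 0.00106) and -3.81 (SE 0.32, adjusted p = 0.0069) by edgeR's quasi-likelihood test with Benjamini-Hochberg adjustment over all genes. Il4ra counted over the whole gene was 45.0 to 156 CPM across the CD45- libraries and differed by 0.02 (log2, SE 0.35) between dIEC and f/f, and such a count is no check of a deletion that takes out a part of the gene in a part of the cells. In the tested CD45+ libraries Il4ra was 89.3 to 272 CPM in f/f and 183 to 296 CPM in dIEC, which overlapped (log2 fold change 1.09, SE 0.28, adjusted p = 0.283 by edgeR). Ptprc, which encodes CD45, was 0 to 16.2 CPM in CD45- cells (median 1.67) and 346 to 757 CPM in the tested CD45+ libraries (median 594).

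The fractions differed in depth. CD45- libraries held 6028275 to 68345191 gene counts and CD45+ libraries 14938629 to 76807504. The 44 genes together received 6520 to 96778 counts per CD45- library and 12855 to 78305 per CD45+ library. Of the 44 genes, 34 had at least 1 count in every library, and 15 of the 1056 values were 0, 5 of them in the left-out CD45+ Hoil1-/- Il4ra f/f replicate 1. A count of 0 allows up to 3 counts, which is 0.0439 to 0.498 CPM in CD45- libraries by total counts and covers counting error only.

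Which of these genes were higher in which fraction was asked first. By edgeR, the calls among mitosis genes were towards CD45- cells and most calls among replication genes were towards CD45+ cells. Of the 44 genes, 13 (29.5%) were higher in CD45- cells, where 25.1% of all 18778 genes tested were, and 5 (11.4%) were higher in CD45+ cells, where 24.5% of all genes were. Of the 28 mitosis genes, 10 (35.7%) were higher in CD45- cells, 0 in CD45+ cells and 18 did not pass by edgeR's quasi-likelihood test, with a median log2 fold change of 0.66 against -0.03 over all genes tested. Of the 13 replication genes, 1 (Tyms) was higher in CD45- cells and 4 (Mcm4, Pcna, Cdt1 and Mcm3, 30.8%) in CD45+ cells, with a median of -0.28. All 5 calls towards CD45+ cells, those 4 and E2f1, were lost with total-count scaling. Leaving out 1 library gave 9 to 17 mitosis genes higher in CD45- cells, with 17 without CD45+ Hoil1-/- Il4ra f/f replicate 3, and 0 to 1 higher in CD45+ cells. The share of all 44 that was higher in CD45- cells lay near the background share. So did the 30.8% of the replication genes that were higher in CD45+ cells, where 24.5% of all genes were. In whole fractions, fewer dividing cells and less of these RNAs per cell cannot be told apart.

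**Figure D1:**
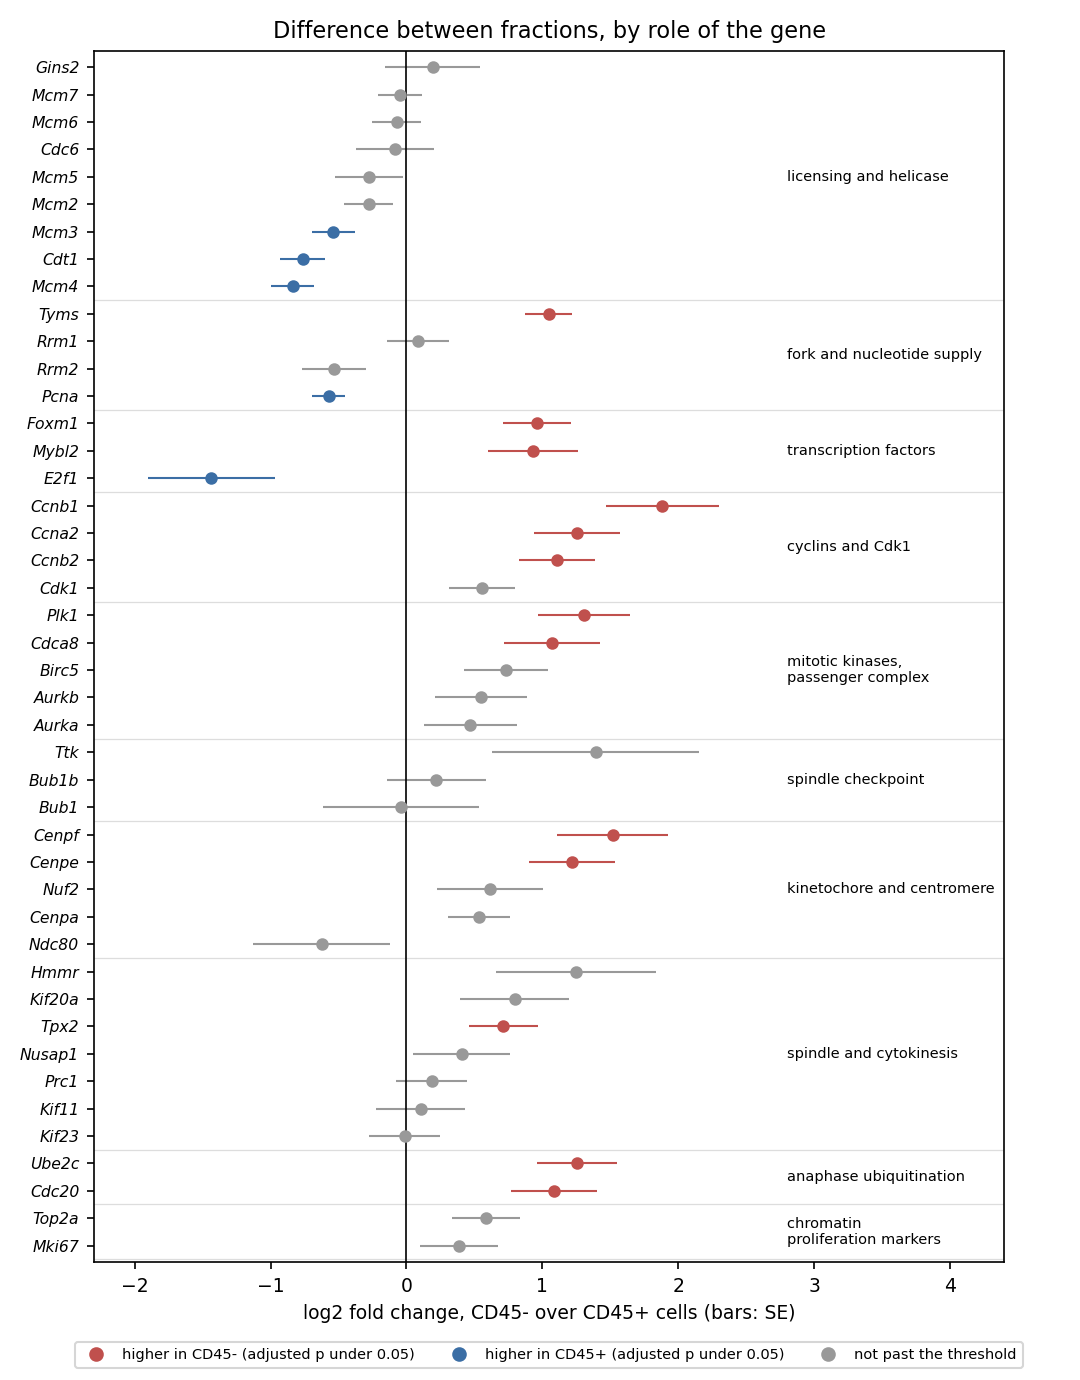
Log2 fold change of CD45- over CD45+ cells (horizontal axis) for each of the 44 genes, grouped by role, with bars for the SE of the edgeR fit on 21 libraries. Coloured points passed an adjusted p of 0.05, and the cyclins, Plk1, Cenpf and Cenpe lie to the right while Mcm4, Cdt1, Mcm3, Pcna and E2f1 lie to the left.

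Among the 9 licensing and helicase genes, 3 (33.3%, against 24.5% of all genes) were higher in CD45+ cells, 0 in CD45- cells, and the median log2 fold change was -0.28. The 3 calls were lost with total-count scaling, and that of Mcm3 also over all 24 libraries. Mcm4, a subunit of the replicative helicase, was 17.4, 30.0 and 45.8 CPM (lowest, median and highest) in the 11 CD45- libraries and 42.9, 50.1 and 70.7 CPM in the 10 CD45+ libraries. The ranges overlapped between 42.9 and 45.8 CPM, and the log2 fold change was -0.84 (SE 0.16, adjusted p = 0.000278). Cdt1, which loads the helicase, was 13.1, 23.8 and 36.3 CPM in CD45- cells and 23, 39.6 and 76.2 CPM in CD45+ cells, a log2 fold change of -0.76 (SE 0.17, adjusted p = 0.00104). Mcm3 was 17.3, 46.8 and 57.0 CPM in CD45- cells against 42.8, 54.2 and 96.1 CPM in CD45+ cells (log2 fold change -0.54, SE 0.16, adjusted p = 0.00968). The helicase genes did not all pass the test. Mcm2 was 42.8 and 46.1 CPM by median in CD45- and CD45+ cells (log2 fold change -0.28, adjusted p = 0.228), and Mcm5 was 49.6 and 58.2 CPM (log2 fold change -0.28, adjusted p = 0.414).

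The 4 genes of the fork and of nucleotide supply were split. Pcna, the sliding clamp, was 52.6, 74.4 and 85.1 CPM in CD45- cells and 66.0, 108 and 123 CPM in CD45+ cells, a log2 fold change of -0.57 (SE 0.12, adjusted p = 0.000844). CD45+ Hoil1+/+ Il4ra f/f replicate 3, at 66.0 CPM, was the only tested CD45+ library within the CD45- range. Tyms, thymidylate synthase, went the other way, with 14.5, 20.2 and 34.0 CPM in CD45- cells and 7.11, 10.4 and 15.8 CPM in CD45+ cells. Its log2 fold change of 1.05 (SE 0.17, adjusted p = 9.57e-05) had the smallest adjusted p of the 44 genes. Rrm2, the regulated subunit of ribonucleotide reductase, had medians of 15.5 CPM in CD45- and 19.9 CPM in CD45+ cells and a log2 fold change of -0.53 (adjusted p = 0.0750). Pcna and Tyms both have annotated pseudogenes of their name, so some of their reads may belong to near-identical copies.

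The 3 transcription factors did not move together. E2f1, which drives genes of the G1 to S transition, was 0, 8.41 and 12.8 CPM in CD45- cells and 11.6, 20.8 and 34.6 CPM in CD45+ cells, a log2 fold change of -1.44 (SE 0.47, adjusted p = 0.0171). The 0 was CD45- Hoil1+/+ Il4ra dIEC replicate 2. Foxm1, which drives mitotic genes, was 6.75, 14 and 21.2 CPM in CD45- cells against 3.32, 6.56 and 17 CPM in CD45+ cells (log2 fold change 0.96, SE 0.25, adjusted p = 0.00386). Mybl2, which acts with FOXM1 on such genes, was 9.28 CPM by median in CD45- cells and 4.52 CPM in CD45+ cells (log2 fold change 0.93, SE 0.33, adjusted p = 0.0275). The call for Mybl2 was lost when any 1 of 5 libraries was left out and over all 24 libraries. In a fit with blocks of genotype and age the calls for Mybl2 and Foxm1 were both lost.

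Of the 4 genes of cyclins and Cdk1, 3 were higher in CD45- cells, where 25.1% of all genes were. Ccnb1, cyclin B1, was 1.30, 17.5 and 26.8 CPM in CD45- cells and 1.24, 4.10 and 10.0 CPM in CD45+ cells. Means were 15.8 ± 7.08 (SD, n = 11) and 4.98 ± 3.02 CPM (SD, n = 10), and the log2 fold change was 1.88 (SE 0.42, adjusted p = 0.00116). CD45- Hoil1-/- Il4ra dIEC replicate 2, at 1.30 CPM, and replicate 1 of that group, at 8.07 CPM, were the only CD45- libraries within the CD45+ range. Ccna2, cyclin A2, was 15.2, 36.2 and 69.1 CPM in CD45- against 5.77, 15.7 and 33.2 CPM in CD45+ cells (log2 fold change 1.26, SE 0.32, adjusted p = 0.00312). Ccnb2 had medians of 19.8 and 7.94 CPM and a log2 fold change of 1.11 (SE 0.28, adjusted p = 0.00329). Their partner Cdk1 had medians of 12.4 and 7.84 CPM, and its log2 fold change of 0.56 did not pass the test (adjusted p = 0.0671), though it did by DESeq2, with RLE factors and with total-count scaling. Ccnb1 and Ccnb2 have annotated pseudogenes of their name, and Ccna2 overlaps a gene on the other strand.

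**Figure D2:**
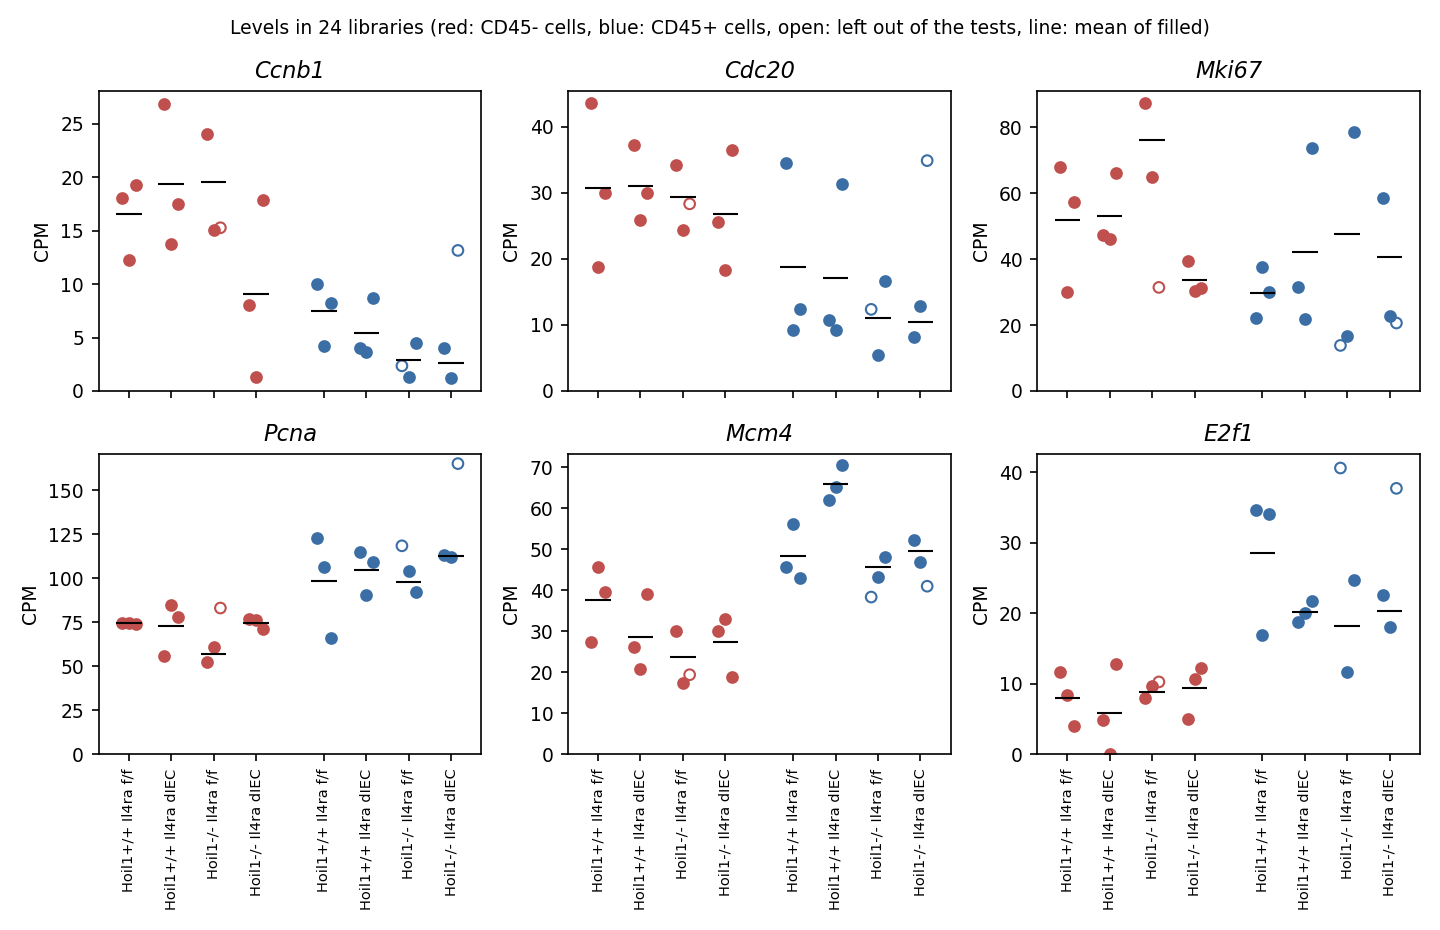
CPM (vertical axes, TMM-scaled) of Ccnb1, Cdc20, Mki67, Pcna, Mcm4 and E2f1 in each of the 24 libraries by fraction and genotype, with horizontal lines at the mean of the tested libraries of a group and open points for the 3 libraries left out of the tests. Ccnb1 and Cdc20 are mostly higher in CD45- libraries and Pcna, Mcm4 and E2f1 mostly higher in CD45+ libraries, while Mki67 spreads widely in both.

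Of the 5 mitotic kinase and chromosomal passenger genes, Plk1 and Cdca8 passed the test. Plk1, a kinase of mitotic entry and spindle assembly, was 10.5, 26.4 and 40.7 CPM in CD45- cells and 1.80, 9.16 and 18.3 CPM in CD45+ cells (log2 fold change 1.31, SE 0.34, adjusted p = 0.00403). Cdca8, which encodes borealin, had medians of 13 and 8.13 CPM (log2 fold change 1.07, SE 0.35, adjusted p = 0.0181). Its call was lost over all 24 libraries, with blocks of genotype and age, and without either of 2 CD45+ Hoil1-/- libraries. Aurkb, the kinase of the same complex, had medians of 12.7 and 7.83 CPM and a log2 fold change of 0.55 (adjusted p = 0.204). Birc5, survivin, had medians of 18 and 9.95 CPM and a log2 fold change of 0.73 (adjusted p = 0.0595), and was called by DESeq2, by the likelihood ratio test, with RLE factors and with total-count scaling.

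Both genes of anaphase ubiquitination were higher in CD45- cells, where 25.1% of all genes were. Cdc20, the activator of the anaphase-promoting complex, was 18.3, 29.9 and 43.5 CPM in CD45- cells and 5.50, 11.6 and 34.5 CPM in CD45+ cells (log2 fold change 1.09, SE 0.31, adjusted p = 0.00838). CD45+ Hoil1+/+ Il4ra f/f replicate 1, at 34.5 CPM, and Il4ra dIEC replicate 3, at 31.3 CPM, lay within the CD45- range. Ube2c, the ubiquitin-conjugating enzyme of that complex, was 18.4, 38.9 and 55.2 CPM against 5.68, 14.4 and 33.2 CPM (log2 fold change 1.25, SE 0.30, adjusted p = 0.00199). Its call was lost over all 24 libraries, and that of Cdc20 in Hoil1+/+ mice alone. Cdc20 and Ube2c, like Cdca8 and Cenpf, overlap genes on the other strand, Foxm1 overlaps 2 genes on its own strand, and the strand setting of the counting is not given in the sources used here.

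Of the 5 kinetochore and centromere genes, 2 were higher in CD45- cells by edgeR's quasi-likelihood test, where 25.1% of all genes were. Cenpf was 3.96, 7.86 and 14.5 CPM in CD45- cells and 0.728, 1.81 and 8.11 CPM in CD45+ cells (log2 fold change 1.52, SE 0.41, adjusted p = 0.00509). Its call was lost over all 24 libraries. Cenpa did not pass, but was called higher in CD45- cells by DESeq2, with RLE factors, with total-count scaling and over all 24 libraries. It was also called in Hoil1+/+ mice alone. Cenpe, a kinetochore motor, was 5.20, 9.83 and 18.6 CPM against 1.73, 4.49 and 11.7 CPM (log2 fold change 1.22, SE 0.31, adjusted p = 0.00376). Ndc80, of the microtubule-binding complex, had the opposite sign without passing the test (medians of 1.90 and 3.22 CPM, log2 fold change -0.62, adjusted p = 0.352). Of the 3 spindle checkpoint genes, 0 passed by this test. Bub1 had medians of 4.41 and 4.54 CPM (log2 fold change -0.04), and Ttk had medians of 3.61 and 1.20 CPM (log2 fold change 1.39, adjusted p = 0.149). DESeq2 called Ttk higher in CD45- cells.

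Of the 7 spindle and cytokinesis genes, Tpx2 alone passed edgeR's quasi-likelihood test. Hmmr was called higher in CD45- cells by DESeq2, the likelihood ratio test and total-count scaling, and Kif20a with total-count scaling. Tpx2, which activates Aurora A on the spindle, had medians of 17.2 and 9.87 CPM (log2 fold change 0.71, SE 0.25, adjusted p = 0.0266). Its call was lost when any 1 of 5 libraries was left out, over all 24 libraries and with blocks of genotype and age. Kif11, the kinesin that separates the poles, had medians of 9.74 and 9.66 CPM (log2 fold change 0.10). The proliferation markers did not pass either by edgeR's quasi-likelihood test. Mki67 was 30.2, 47.5 and 87.5 CPM in CD45- cells and 16.7, 30.7 and 78.7 CPM in CD45+ cells (log2 fold change 0.39, adjusted p = 0.306). Leaving out 1 library gave log2 fold changes of 0.18 to 0.74 for Mki67. Top2a, the topoisomerase that untangles chromosomes, was 22.8, 46.3 and 78.0 CPM against 20.6, 31.1 and 64.1 CPM (log2 fold change 0.59, adjusted p = 0.0616). Top2a was called higher in CD45- cells by DESeq2, by the likelihood ratio test, with RLE factors and with total-count scaling, and Mki67 with total-count scaling. Without CD45+ Hoil1-/- Il4ra f/f replicate 3 both were called, with log2 fold changes of 0.74 for Mki67 and 0.77 for Top2a.

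No single gene separated the fractions fully. Over all 24 libraries, 0 of the 44 genes had every CD45- library above every CD45+ library, against 7.62% of all genes tested, and 0 had every CD45- library below, against 6.81%. Scaling by total counts in place of TMM moved the median of all genes from -0.03 to 0.27 and called 21 of the 44 higher in CD45- cells (29.6% of all genes) and 0 higher in CD45+ cells (16.4% of all genes). The log2 fold changes of Mcm4, Cdt1, Pcna and Mcm3 were then -0.52, -0.44, -0.28 and -0.21, still below 0. The 8 genes Ccna2, Ccnb1, Ccnb2, Cdc20, Cenpe, Foxm1, Plk1 and Tyms were called higher in CD45- cells under each of 28 alternatives, which were other tools, scalings and filters, all 24 libraries, no immunoglobulin genes and each library left out in turn. In the contrasts added after the data were seen, Ccna2 and Cdc20 were not called in Hoil1+/+ mice alone, Ccnb2, Cenpe and Foxm1 were not called in Hoil1-/- mice alone, and Foxm1 was not called in a fit with blocks of genotype and age.

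The contrast could be read within each library as the summed CPM of the 28 mitosis genes over that of the 13 replication genes, a ratio added after the data were seen. Library scaling cancels in it. It was 0.628 to 1.47 in the 12 CD45- libraries (median 1.00) and 0.311 to 0.772 in the 12 CD45+ libraries (median 0.535). Over the tested libraries it was 1.09 ± 0.307 (SD, n = 11) and 0.529 ± 0.138 (SD, n = 10). CD45- Hoil1+/+ Il4ra f/f replicate 2, at 0.628, and Hoil1-/- Il4ra dIEC replicate 2, at 0.709, were the CD45- libraries below the highest CD45+ library, Hoil1+/+ Il4ra dIEC replicate 3 at 0.772. The sums of mitosis genes were 495 ± 115 CPM in CD45- and 312 ± 121 CPM in CD45+ cells, and those of replication genes 467 ± 87.4 and 576 ± 90.9 CPM. By Hoil1 genotype the ratio was 1.07 ± 0.338 (Hoil1+/+, n = 6) and 1.10 ± 0.303 (Hoil1-/-, n = 5) in CD45- cells, and 0.549 ± 0.123 (n = 6) and 0.500 ± 0.173 (n = 4) in CD45+ cells. The genotypes overlapped in both fractions. Enterocyte markers, of which 8 of 8 were detected with Apoa1 the most abundant, moved with the ratio within CD45- cells. The 6 CD45- libraries with enterocyte sums of 11283 CPM or more had ratios of 1.04 to 1.47, and the 6 with sums of 1420 CPM or less had ratios of 0.628 to 0.968. Endothelial markers (7 of 7 detected, Vwf the most abundant) went the other way, with sums of 1113 to 2377 CPM in the former 6 libraries and 3233 to 7358 CPM in the latter 6. Mitochondrial genes took 6.87% to 20.1% of counts in CD45- libraries (median 8.55%) and 1.66% to 8.96% in CD45+ libraries (median 3.71%). The 3 tested CD45- libraries with the highest shares, 12.3% to 20.1%, had ratios of 1.23 to 1.45, and the left-out one, at 17.4%, had 0.827. The part of these markers and of the mitochondrial share in the ratio was not tested.

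**Figure D3:**
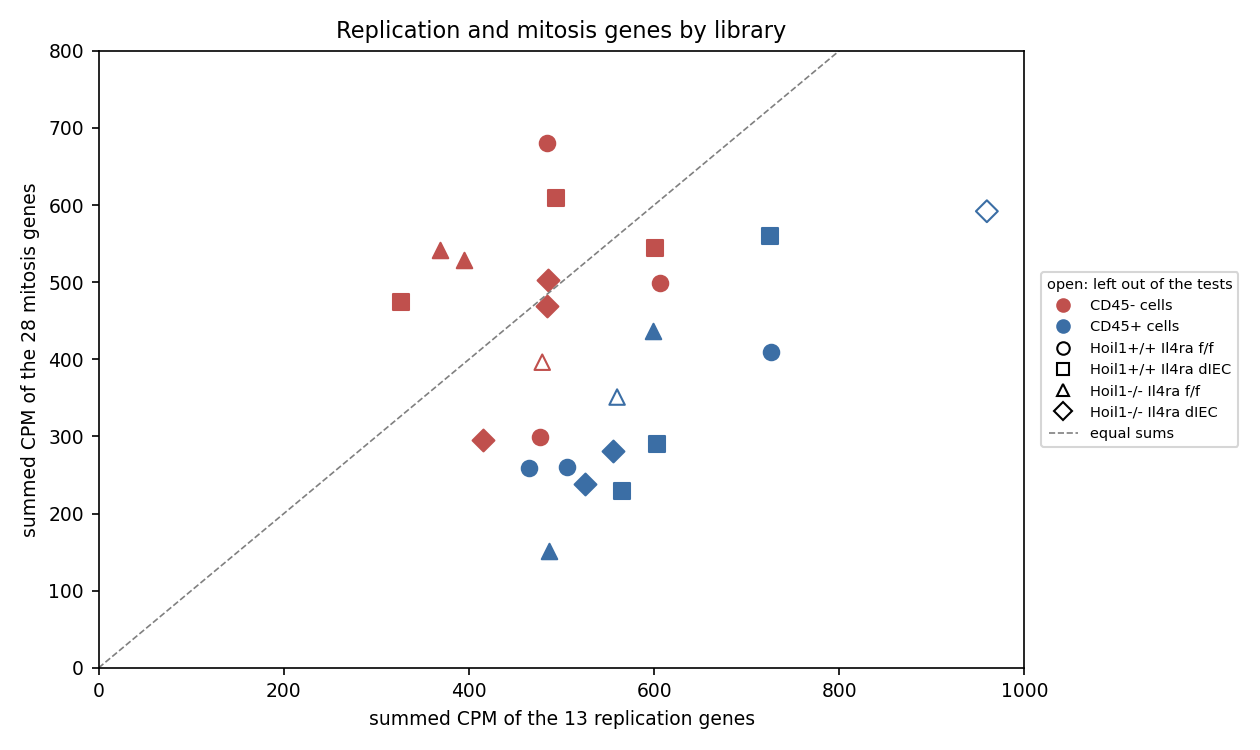
Summed CPM of the 28 mitosis genes (vertical axis) against that of the 13 replication genes (horizontal axis) for each of the 24 libraries, coloured by fraction and shaped by genotype, with open marks for the 3 libraries left out of the tests and a dashed line at equal sums. Every CD45+ library lies below the line, while CD45- libraries lie on both sides of it.

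The 2 fractions were also compared within each Hoil1 genotype, again as an addition after the data were seen. In Hoil1+/+ mice, 8 of the 44 genes were higher in CD45- cells (23.8% of all genes) and 3 higher in CD45+ cells (18.6%). In Hoil1-/- mice, 6 were higher in CD45- cells (18.6%) and 4 higher in CD45+ cells (17.5%). Mitosis genes had 6 and 5 calls in CD45- cells in these, and 0 in CD45+ cells in both. Mcm4 had log2 fold changes of -0.78 in Hoil1+/+ and -0.89 in Hoil1-/-, Tyms 1.01 and 1.09, and Ccnb1 1.49 and 2.28, each past the threshold in both.

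Levels of different genes were compared per kilobase of merged exons. Pcna was the most abundant of the 44 in both fractions, with 29.6 ± 4.18 CPM per kb in CD45- and 43.0 ± 6.82 CPM per kb in CD45+ cells. Next came Cdc20 in CD45- cells (15.8 ± 4.24 CPM per kb) and Mcm5 in CD45+ cells (15.9 CPM per kb). Ndc80 (0.415 CPM per kb) was lowest in CD45- cells and Cenpf (0.195 CPM per kb) in CD45+ cells. Mitosis genes varied more among libraries than replication genes, with a median coefficient of variation of 39.9% against 30.3% in CD45- cells and 55.8% against 27.1% in CD45+ cells. The replication genes with the lowest levels, Cdc6 and Gins2, had coefficients of 44.7% and 40.3% in CD45- cells and 38.5% and 66.1% in CD45+ cells. Genes of like level were not compared, and the part of level in this difference was not tested.

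Markers of cell types differed between libraries as well as between fractions. All 6 crypt base stem cell markers were detected in CD45- libraries, with a sum of 599 to 1829 CPM (median 1317) led by Olfm4, and 26.3 to 83.5 CPM (median 38.8) in CD45+ libraries. The lowest stem cell sum, 599 CPM, was in CD45- Hoil1-/- Il4ra dIEC replicate 2, where the 44 genes summed to 734 CPM, the lowest of the fraction, while the highest, 1829 CPM, was in the left-out library, where they summed to 894 CPM. Enterocyte sums ranged from 189 to 33288 CPM in CD45- libraries. CD45- libraries also held erythroid transcripts at 1314 to 19234 CPM, against 0 to 43.4 CPM in CD45+ libraries. In CD45+ libraries the 6 plasma cell markers summed to 8939 to 49770 CPM, led by Jchain, and immunoglobulin genes took 13.2% to 46.4% of counts, against at most 1.75% in CD45- libraries. Of 7 germinal centre B cell markers, 6 had a count in CD45+ libraries, with sums of 54.3 to 190 CPM led by Bcl6. The sums in CD45- libraries, 24.5 to 104 CPM, overlapped these. The highest CD45+ library was Hoil1+/+ Il4ra dIEC replicate 3, where the 44 genes summed to 1331 CPM. The next, Hoil1-/- Il4ra dIEC replicate 2 with 125 CPM, had a sum of 797 CPM for the 44. The 4 pan-leukocyte markers summed to at most 38.8 CPM in CD45- libraries. The part of these cell types in the values of the 44 genes was not tested. Leaving the immunoglobulin genes out left the counts at 13 and 5.

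**Figure D4:**
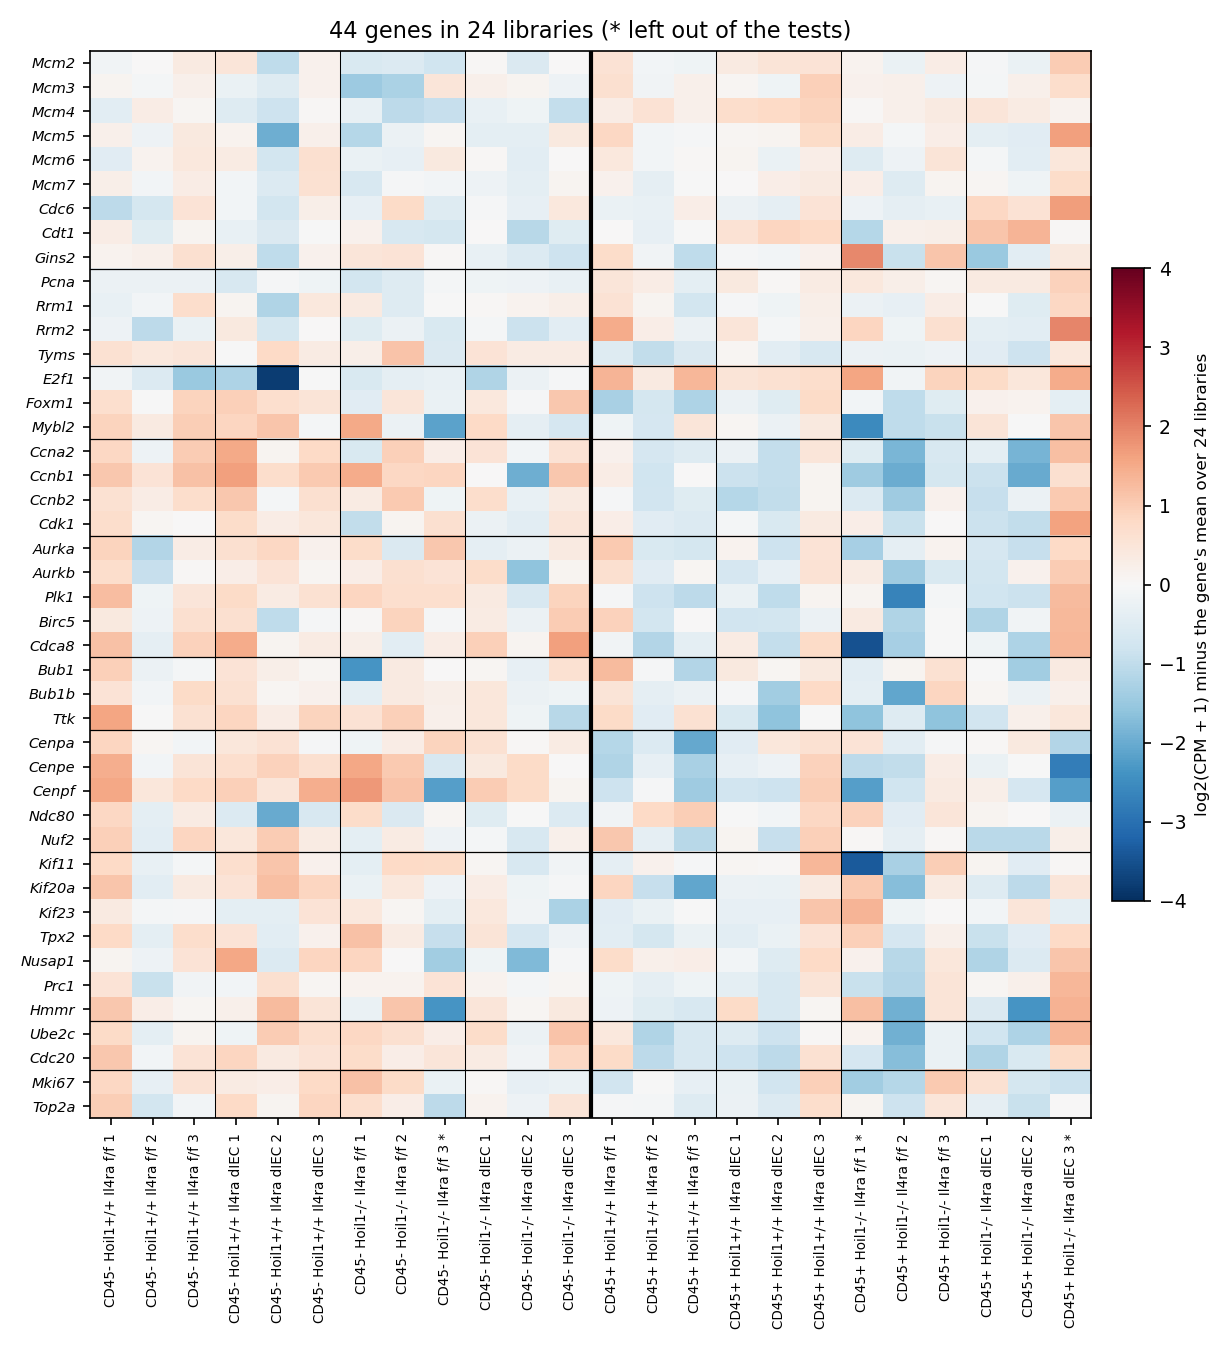
Level of each of the 44 genes (rows, by role) in each of the 24 libraries (columns, by fraction and genotype), as log2(CPM + 1) minus the mean of the gene over the libraries, with asterisks on the 3 libraries left out of the tests. Mitosis genes are mostly above their mean in CD45- columns, and replication genes such as Mcm4 and Pcna in CD45+ columns, with wide differences between libraries of 1 group.

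Other genes of the same pathways, 118 in 9 lists, were taken as wider context. Of these, 28 were higher in CD45- cells, 22 in CD45+ cells and 68 did not pass, with a median log2 fold change of 0.05. The first count was 18 without CD45+ Hoil1-/- Il4ra f/f replicate 2 and 16 with blocks of genotype and age, and the second was 11 with total-count scaling. The full counts are 23.7% and 18.6% of the 118, against the 25.1% and 24.5% of all genes given above. Kinesins and further cytokinesis genes stood at 12 higher in CD45- cells and 0 in CD45+ cells of 26, with a median of 0.78. They included Pbk (2.30), Melk (1.80), Kif22 (1.76) and Stmn1 (1.02), the values being log2 fold changes. The 13 further kinetochore and checkpoint genes had 2 higher in CD45- cells, Zwilch (1.24) and Spc24 (1.02), and a median of -0.10. The 10 condensin and cohesion genes had 2 higher in CD45- cells and 1, Ncapg2 (-0.87), higher in CD45+ cells.

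On the replication side, the 14 genes of origin licensing and firing had 2 higher in CD45- cells, Mcm10 (log2 fold change 1.72) and Timeless (1.50), and 4 in CD45+ cells, Cdc7 (-1.76), Orc2 (-1.13), Gins3 (-1.09) and Dbf4 (-0.74). CDC7 and DBF4 form the kinase that fires origins. The 15 polymerase and fork genes had 1 higher in CD45- cells, Pole (0.77), and 3 in CD45+ cells, Dna2 (-1.50), Rpa1 (-1.10) and Fen1 (-0.50). The 5 nucleotide supply genes had 1 higher in CD45- cells and 2 in CD45+ cells, Dck (-2.51), which encodes deoxycytidine kinase, and Rrm2b (-1.19). Among 7 chromatin assembly genes, Chaf1a was higher in CD45- cells (0.99), and Asf1b (-1.03) and Lmnb1 (-0.67) in CD45+ cells. For these counts, 25.1% of all genes were higher in CD45- cells and 24.5% in CD45+ cells.

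Genes that gate the cycle were called in both directions, where 25.1% of all genes were higher in CD45- cells and 24.5% in CD45+ cells. Of 12 inhibitors and brakes, 4 were higher in CD45- cells, Cdkn2b (3.75), Cdkn1c (3.57), Wee1 (1.52) and Cdkn1a (0.85). The 5 higher in CD45+ cells were Cdkn2a (-6.82), the antiproliferative genes Btg1 (-2.59) and Btg2 (-1.34), Cdkn2d (-1.90) and Cdkn1b (-1.18). Of 16 G1 cyclin and kinase genes, Ccnd1 (1.81), Cdk4 (0.50) and Cdc25a (0.47) were higher in CD45- cells. The retinoblastoma family genes Rbl2 (-1.85), Rbl1 (-0.72) and Rb1 (-0.51) and the cyclin genes Ccne1 (-1.60) and Ccnd3 (-0.72) were higher in CD45+ cells.

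Whether loss of HOIL1 changed these genes was asked in each fraction. By edgeR's quasi-likelihood test 0 of the 44 passed in CD45- cells averaged over Il4ra (0.0182% of all 16453 genes did), and 0 in CD45+ cells (0.00587% of all 17029 genes). At an unadjusted p of 0.05 there was 1 of 44 in each fraction, against 5.28% and 5.85% of all genes, and 0 passed by DESeq2 or by edgeR's likelihood ratio test. The median log2 fold change of Hoil1-/- over Hoil1+/+ was -0.17 in CD45- cells (-0.08 over all genes) and -0.34 in CD45+ cells (-0.05). These medians depended on single libraries. In CD45- cells the median was -0.26 without Hoil1+/+ Il4ra f/f replicate 2, -0.11 without Hoil1-/- Il4ra dIEC replicate 2 and -0.07 without Hoil1+/+ Il4ra f/f replicate 1. In CD45+ cells it was -0.62 without Hoil1-/- Il4ra f/f replicate 3, -0.12 without replicate 2 of that group and -0.20 without Hoil1+/+ Il4ra f/f replicate 1. The difference of the Hoil1 effect between fractions had 0 of 44 past the threshold, where 0.0266% of all genes passed, and also 0 at an unadjusted p of 0.05 and 0 by DESeq2 or the likelihood ratio test.

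**Figure D5:**
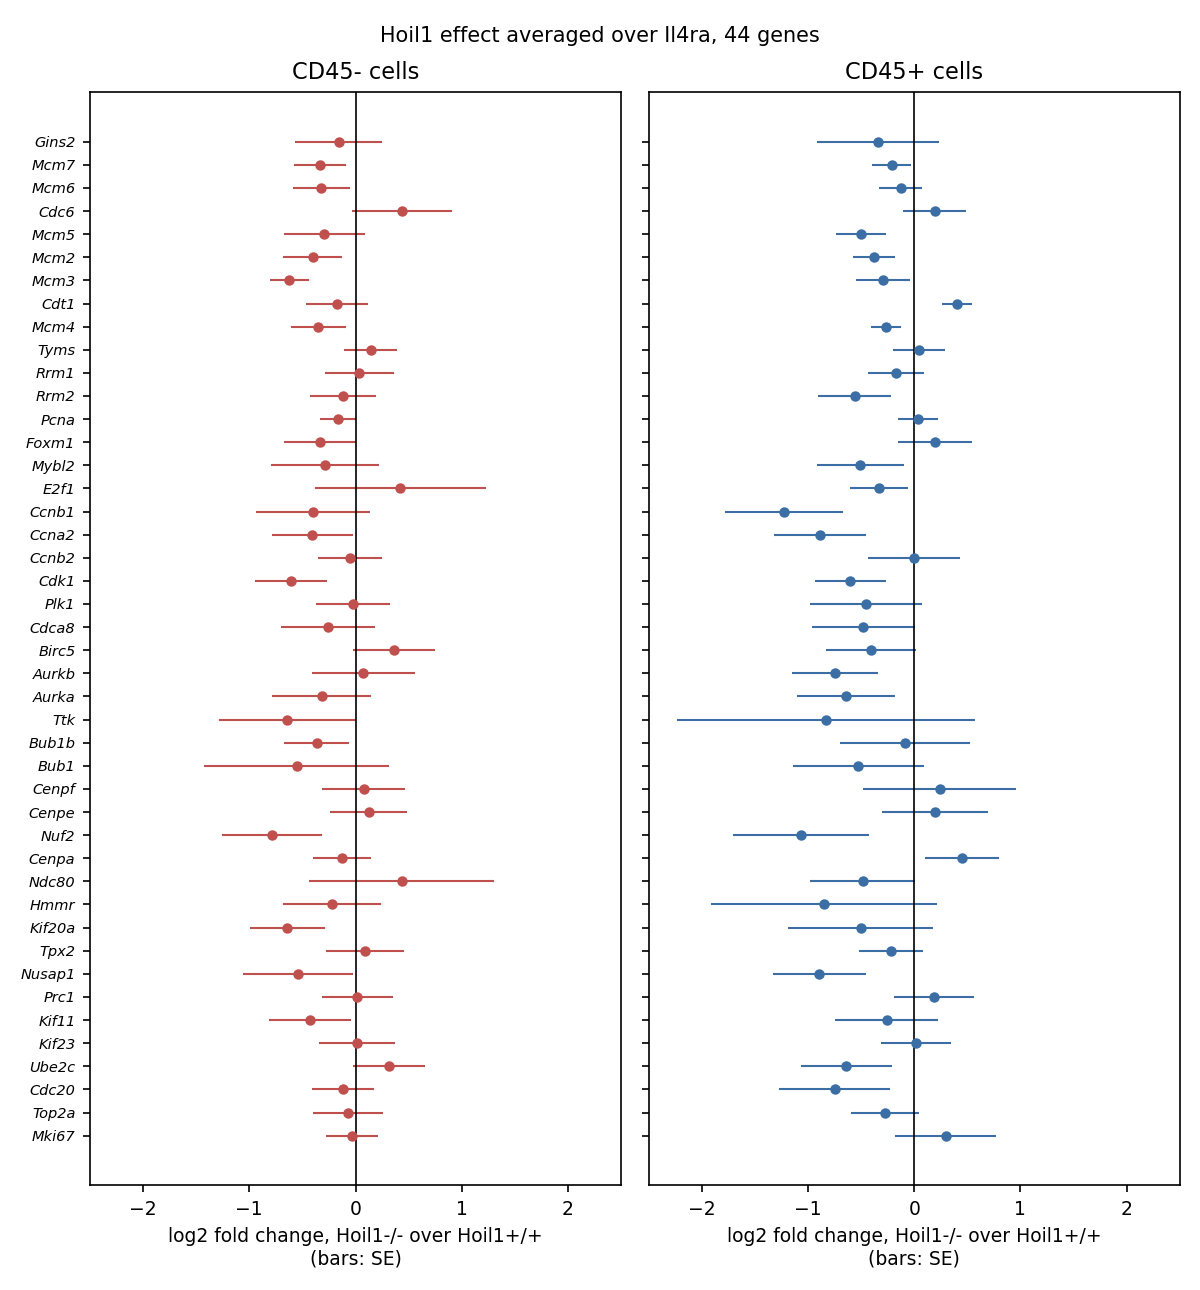
Log2 fold change of Hoil1-/- over Hoil1+/+ averaged over Il4ra (horizontal axes) for each of the 44 genes in CD45- cells (left, 11 libraries) and CD45+ cells (right, 10 libraries), with bars for the SE. Most points lie within 1 of 0 and none passed an adjusted p of 0.05.

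The 95% intervals are for single genes without adjustment and give the range of values around each estimate. They do not give the change that would have passed the adjusted threshold. Those of Mcm3 in CD45- cells (-1.03 to -0.21) and of Cdt1 in CD45+ cells (0.08 to 0.72) left out 0, but neither gene passed that threshold. For Mki67 in CD45- cells the log2 fold change was -0.04 with a 95% interval of -0.58 to 0.50, and in CD45+ cells 0.30 with an interval of -0.77 to 1.36. For Pcna it was -0.17 (-0.54 to 0.21) in CD45- cells and 0.03 (-0.39 to 0.46) in CD45+ cells. Ccnb1 had log2 fold changes of -0.40 (-1.58 to 0.78) and -1.23 (-2.47 to 0.02), the latter with an adjusted p of 0.783 by edgeR. The 6 helicase genes Mcm2 to Mcm7 all lay below 0 in both fractions, from -0.62 to -0.29 in CD45- cells and from -0.50 to -0.13 in CD45+ cells, with 0 past the threshold. Over all libraries, 6 of 6 in CD45- cells and 4 of 6 in CD45+ cells were below 0. The medians of the 44 genes and of all genes, given above, were also below 0 in both fractions.

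The 5 genes with the smallest unadjusted p are given as values for each comparison. In CD45- cells averaged over Il4ra they were Mcm3 (-0.62, SE 0.19), Kif20a (-0.64, SE 0.35), Cdk1 (-0.61, SE 0.34), Nuf2 (-0.78, SE 0.47) and Mcm2 (-0.40, SE 0.28). In CD45+ cells they were Cdt1 (0.40, SE 0.14), Ccnb1 (-1.23, SE 0.56), Mcm5 (-0.50, SE 0.23), Ccna2 (-0.89, SE 0.43) and Nusap1 (-0.89, SE 0.44). For the difference between fractions they were Cdt1 (-0.61, SE 0.33), Ube2c (0.92, SE 0.58), Cenpa (-0.60, SE 0.46), Birc5 (0.74, SE 0.61) and Aurkb (0.79, SE 0.67). All of these are log2 fold changes that did not pass the adjusted threshold. Several values of single genes, here and below, moved widely when 1 library was left out, such as Ccna2 in CD45+ cells (-1.41 to -0.59).

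With Il4ra intact (f/f), 0 of the 44 passed for Hoil1 in CD45- cells (0.0365% of all genes) and 0 in CD45+ cells (0.0% of all genes). At an unadjusted p of 0.05 there were 1 and 0 of 44, against 13.1% and 5.27% of all genes. Mcm3 stood closest in CD45- cells. It was 53.3, 46.8 and 57.0 CPM in the 3 Hoil1+/+ libraries and 17.3 and 19.9 CPM in the 2 tested Hoil1-/- libraries. These did not overlap, but the left-out Hoil1-/- replicate 3 stood at 68.8 CPM, above all of them. The enterocyte marker sum also differed between these libraries. It was 11283, 1004 and 1420 CPM in Hoil1+/+, 28031 and 20643 CPM in the tested Hoil1-/- libraries and 1246 CPM in the left-out one, and its part in the Mcm3 values was not tested. The log2 fold change was -1.49 (SE 0.29, adjusted p = 0.122 by edgeR), and DESeq2 (adjusted p = 2.01e-05, 3.73% of all genes called) and the likelihood ratio test (adjusted p = 0.00912, 2.13%) did call it. The next were Mcm2 (-0.69), Mcm4 (-0.64), Mki67 (0.57) and Pcna (-0.38). In CD45+ cells they were Aurkb (-1.28), Mybl2 (-1.21), Cenpa (0.96), Ccnb1 (-1.39) and E2f1 (-0.66), with 0 called by either other tool. Leaving out 1 library gave -2.55 to -0.75 for Ccnb1 and -1.295 to -0.222 for E2f1 in CD45+ cells. For Mcm4 in CD45- cells it gave -1.135 to -0.265.

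With epithelial Il4ra deleted (dIEC), 0 of the 44 passed for Hoil1 in CD45- cells (0.00608% of all genes) and 0 in CD45+ cells (0.0%), with 0 and 3 of 44 at an unadjusted p of 0.05 (7.66% and 6.08% of all genes) and 0 by DESeq2 or the likelihood ratio test. Mcm3 was 40.8, 34.1 and 55.5 CPM in the Hoil1+/+ and 56.6, 53.1 and 42.8 CPM in the Hoil1-/- libraries of CD45- cells, which overlapped. The enterocyte sums of these libraries were 33288, 31671 and 913 CPM in Hoil1+/+ and 677, 189 and 12663 CPM in Hoil1-/-. The libraries with sums of 12663 CPM or more had the lower Mcm3 of their genotype. In Hoil1+/+ Il4ra f/f, the library with a sum of 11283 CPM had 53.3 CPM of Mcm3. Those with 1004 and 1420 CPM had 46.8 and 57.0 CPM. The part of enterocytes in these values was not tested. The log2 fold changes with the smallest p were Nusap1 (-1.44), Mki67 (-0.64), Kif20a (-0.91), Kif11 (-0.96) and Ccnb1 (-1.05) in CD45- cells. In CD45+ cells they were Mcm5 (-0.80), Cdt1 (0.48), Mcm2 (-0.66), Mcm4 (-0.43) and Cdk1 (-0.99). In CD45+ cells the median over the 44 was -0.41, against -0.06 over all genes, and -0.19 without Hoil1+/+ Il4ra dIEC replicate 3.

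The interaction asks whether the Hoil1 effect differed between dIEC and f/f. By edgeR's quasi-likelihood test 0 of the 44 passed in CD45- cells and 0 in CD45+ cells (0.0% of all genes in both), with 2 and 0 of 44 at an unadjusted p of 0.05 against 20.7% and 7.01% of all genes. In CD45- cells Mcm3 had an interaction of 1.73 (log2, SE 0.38, adjusted p = 0.121), which DESeq2 (adjusted p = 0.000462, 8.91% of all genes called) and the likelihood ratio test (adjusted p = 0.0142, 7.43%) called. Without Hoil1+/+ Il4ra dIEC replicate 3 its adjusted p was 0.0266 by edgeR. That fit called 561 genes higher and 638 lower of all 16019 tested. The others with the smallest p were Mki67 (-1.21), Nusap1 (-1.79), Kif11 (-1.07, or -1.54 to -0.33 with 1 library left out) and Cenpe (-0.97). In CD45+ cells they were Tpx2 (-1.06), Mybl2 (1.40), Tyms (-0.85), Cdc6 (1.02) and Cenpa (-1.03), with 0 called by DESeq2 or the likelihood ratio test.

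For epithelial deletion of Il4ra, averaged over Hoil1, 0 of the 44 passed in CD45- cells (0.0% of all genes) and 0 in CD45+ cells (0.00587%), with 2 and 4 of 44 at an unadjusted p of 0.05, against 5.90% and 10.6% of all genes. The smallest p in CD45+ cells was that of Cdt1, in cells that Vil1-driven Cre does not target. It was 29.8, 23 and 28.8 CPM in Hoil1+/+ Il4ra f/f and 44.6, 54.0 and 51.6 CPM in Hoil1+/+ Il4ra dIEC. In Hoil1-/- it was 34.3 and 34.6 CPM in f/f and 64.7 and 76.2 CPM in dIEC. Within each Hoil1 genotype the tested libraries did not overlap, while the left-out libraries stood at 12.7 CPM (f/f) and 30.2 CPM (dIEC). The log2 fold change was 0.97 (SE 0.15, adjusted p = 0.176 by edgeR), and DESeq2 (adjusted p = 7.24e-06, 2.0% of all genes called) and the likelihood ratio test (adjusted p = 0.000873, 1.18%) called it. Plasma cell markers (6 of 6 detected, Jchain the most abundant) separated the same tested libraries, with sums of 20140 to 49770 CPM in f/f and 8939 to 16456 CPM in dIEC. The left-out libraries had 15684 CPM (f/f) and 40833 CPM (dIEC). The sum of eosinophil, mast cell and neutrophil markers (6 of 7 detected, Mcpt1 the most abundant, Epx at 0) was 482 to 1679 CPM in the tested f/f and 140 to 542 CPM in the tested dIEC libraries, which overlapped. Il4ra counts, given above, were also mostly higher in the dIEC libraries. The part of these cells in the Cdt1 values was not tested. Cdt1 overlaps a predicted gene, Gm20388, so some of its reads may be shared.

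The next by p in CD45+ cells were Foxm1 (1.18), Cenpa (1.01), Cdc6 (0.67) and Mybl2 (0.89), log2 fold changes of dIEC over f/f. In CD45- cells they were Mcm3 (0.59), Mki67 (-0.57), Gins2 (-0.88), Tpx2 (-0.60) and Ndc80 (-1.30), with 0 called by DESeq2 or the likelihood ratio test. The median over the 44 genes was -0.05 in CD45- cells and -0.02 in CD45+ cells, against 0.06 and -0.01 over all genes, and leaving out 1 library gave -0.17 to 0.07 and -0.24 to 0.36. None of the 118 further pathway genes passed edgeR's quasi-likelihood test for Hoil1 or Il4ra, averaged over the other gene, in either fraction. At most 0.0182% of all genes passed in these comparisons.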

How the data were processed

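The deposited values were raw counts per gene for 24 libraries in 1 table. Per the study's methods, the authors trimmed reads of poly-A selected mRNA with cutadapt, aligned them with STAR to the mouse genome (mm10, GRCm38) and counted them with featureCounts, whose strand and multimapping settings are not given in the sources used here. Gene IDs were paired with GENCODE M21 symbols (38872 of 39056 matched).

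The 44 members and all lists were chosen with earlier results of these data known. Levels are TMM-scaled CPM over 24 libraries. Tests were edgeR 4.0.16 (limma 3.58.1, R 4.3.3) quasi-likelihood fits, two-sided, on the 21 libraries the study kept, with filterByExpr (minimum count 10, minimum total 15). Contrasts of group means were adjusted by Benjamini-Hochberg over all genes tested, threshold 0.05. Each fraction was fitted alone for genotype, and both together for fraction. DESeq2 1.42.0 and the other settings are in the closing section. Per the study's figure legends, each sample within a fraction came from an individual mouse. No replicate pair was a duplicate (lowest chi-square per degree of freedom 37.4). The fits were tested on simulated data.

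Named were a list of genes by role, up to 10 called genes per direction, and the 5 smallest p where fewer than 5 passed. Cdca8, Tpx2, Ttk and Ndc80 in the fraction comparison, and several genes of the role counts, were named after their values were seen. Promoter motifs were searched in RefSeq sequences (GRCm38.p6). The value of 1 gene of the wider lists is not reported here.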

Additional observations from a re-analysis of the deposited data

How the results depend on the processing

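In the fraction comparison, 18 genes were called, 13 higher in CD45- and 5 higher in CD45+ cells. Total-count scaling gave 21 and 0. DESeq2 gave 19 and 5 (28.4% and 23.8% of all genes) and RLE factors 17 and 5 (26.5% and 22.8%). The likelihood ratio test gave 16 and 5 (26.1% and 25.8%), and all 24 libraries 9 and 5 (26% and 24.5%). No filter, or no immunoglobulin genes, gave 13 and 5. Alternatives chosen after seeing the data, Hoil1+/+ alone and Hoil1-/- alone, gave 11 (8 and 3) and 10 (6 and 4) in all. Leaving out 1 library gave 16 to 24 calls, 11 to 19 of them higher in CD45- cells (19 without CD45+ Hoil1-/- Il4ra f/f replicate 3) and 5 to 6 higher in CD45+ cells. The calls lost over all 24 libraries were those of Mcm3, Cdca8, Cenpf, Mybl2, Tpx2 and Ube2c. No called result changed direction under any alternative run.

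DESeq2 and the likelihood ratio test each called 1 gene in CD45- cells for Hoil1 in Il4ra f/f and 1 for the interaction (Mcm3 in both), and 1 in CD45+ cells for Il4ra (Cdt1). Leaving out 1 library gave 0 to 1 for the first pair. Without CD45- Hoil1-/- Il4ra f/f replicate 2, the gene called for Hoil1 in f/f and for the interaction was Bub1. The lone library of that group was at 0 and was assumed to vary like the other groups. More genes were called over all genes in that fit than in the main fit, and the Bub1 call is not read as a change. The causes were not tested.

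No paired analysis was possible because the labels give no replicate numbers and tie no library to a mouse. Blocks of genotype and age, chosen after seeing the data and fitted over the 17 libraries of 6 blocks that held both fractions, gave 14 calls, 9 and 5, all among the 18, and the calls lost were those of Foxm1, Mybl2, Cdca8 and Tpx2. Of the 118 pathway genes, 16 were then higher in CD45- cells. Mitosis genes higher in CD45- cells were 16 by DESeq2 and 18 with total-count scaling, which gave 11 pathway genes higher in CD45+ cells. With 2 to 3 libraries a group, SEs of single genes are wide for genotype, and the shallowest library held 6028275 counts.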

Other observations

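The 3 libraries left out by the study differed in these genes. CD45+ Hoil1-/- Il4ra dIEC replicate 3 had the highest sum of the 44 genes in any library, 1608 CPM, against 656 to 1331 CPM in the 10 tested CD45+ libraries, and was the highest CD45+ library for 22 of the 44. Its Pcna stood at 165 CPM. CD45+ Hoil1-/- Il4ra f/f replicate 1 summed to 960 CPM with 5 genes at 0, and CD45- Hoil1-/- Il4ra f/f replicate 3 summed to 894 CPM and had the highest erythroid marker sum of all libraries, 19234 CPM.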
